A study of Mus musculus with 16 samples.

Results

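The genes described here encode the metalloproteinases that cut extracellular matrix and cell surface proteins, together with their tissue inhibitors. Members were picked by name, as every named row of the 3 deposited expression tables beginning Mmp, Timp, Adam, Adamts or Adamtsl and a number. Mmp2 was left out, and the choice was made with earlier results of these data known. The rule found 34 genes on 37 rows, of 6258 named rows in all. Of the 28 members in the table of quiescent cells, 3 also had a row in the table of GFP-intermediate cells, where there were 8 members, and 1 further gene was the single member of the GFP-high table. The mouse annotation GENCODE vM21 has 82 protein-coding genes with such names, so 48 had no row. The share of all annotated genes without a row was not counted, so this number is not shown to be particular to these families. The tables list only genes that came out of the authors' comparisons between the groups. A missing gene is therefore not shown to be absent or equal. In quiescent cells the named rows match the number of genes the paper calls different. For WT1 deletion the paper counts fewer genes than there are named rows, so a row there need not be a gene it called.

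RNA sequencing covered 16 samples of mouse hepatic stellate cells (HSCs), the pericytes of the liver sinusoid that store vitamin A and become matrix-producing myofibroblasts after injury. Quiescent HSCs (qHSCs) came from 3 uninjured C57/Bl6 animals of genotype WT1CreERT2;Ai14 that had been exposed to tamoxifen at E10.5, so that cells expressing WT1 at that stage, and their progeny, carried the red reporter. The livers were taken after weaning, and each animal gave 1 label-positive and 1 label-negative sample. Their sex is male in the labels but female in the written methods of this isolation. Activated HSCs (aHSCs) came from 6 adult male C57/Bl6 animals given carbon tetrachloride for 8 weeks, a toxin of pericentral hepatocytes. All carried PDGFRbCre, the Ai14 reporter and 1 WT1 allele replaced by GFP, and the other WT1 allele was wild type in the 3 controls (WT1_+_GFP) and floxed in the 3 deleted animals (WT1_fl_GFP). Reporter-positive cells were sorted into GFP-high cells, with 3 samples of each genotype, and GFP-intermediate cells, which the labels call low, with 2 of each.

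Some features limit these groups as models. PDGFRbCre is constitutive and drives recombination wherever and whenever its promoter has been active, the germline included. The controls have 1 functional WT1 allele, as have the animals with the CreERT2 knock-in. Of the GFP-intermediate controls, 1 sample was pooled from 2 animals, and 3 control and 2 deleted animals gave cells to both GFP fractions. No level of Wt1 was analysed, and its loss from the deleted cells was not checked here. Each group has 1 FPKM per gene (fragments per kilobase, relative to all mapped fragments), in which its samples are already combined. Neither depth nor spread between animals is therefore known, no standard deviation can be given, no sample can be seen to stand apart, and no test was run. Differences are log2 ratios of the group FPKM, and levels of different genes are compared only as FPKM, which is per length.

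Matrix metalloproteinases (MMPs) are zinc enzymes, most of them secreted as inactive precursors, and between them they cleave collagens, gelatin, elastin and proteoglycans. Membrane-type MMPs stay at the cell surface. Tissue inhibitors of metalloproteinases (TIMPs) bind the active site, and Timp3 is itself held in the matrix and also inhibits several ADAM and ADAMTS enzymes. ADAM proteins are membrane-anchored and shed the outer parts of other surface proteins, although some lack catalytic activity and act in adhesion. ADAMTS enzymes are secreted and cleave hyalectan proteoglycans or procollagen, while the ADAMTS-like proteins have no catalytic domain and bind microfibrils. In liver fibrosis the balance of collagenases and inhibitors is known to bear on how fast scar is removed, and macrophages, neutrophils, endothelium and HSCs are all known sources.

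Many Mmp genes sit next to each other on mouse chromosome 9. In the RefSeq annotation of GRCm38.p6 that stretch holds 10 Mmp genes among 13 genes, in the order Mmp13, Mmp12, Mmp1b, Mmp3, Mmp1a, Mmp10, Mmp8, Mmp27, Mmp20 and Mmp7. After WT1 deletion in GFP-intermediate cells 4 of them had a row. Mmp13, Mmp12 and Mmp27 were lower and Mmp7 was higher, while 62.8% of all rows of that comparison were lower. In qHSCs 3 had a row, Mmp12, Mmp3 and Mmp8. All were lower in label-positive cells, as were 49.6% of all rows there. The 150 bases before the start site are shown for the members of this stretch whose promoter window held the AP-1 motif TGAGTCA. Proximal AP-1 sites are a classical feature of inducible MMP promoters. Mmp1b, Mmp1a, Mmp10 and Mmp20 had no row and are not members, and their windows were not examined one by one. Capitals mark the motif, which in Mmp13 lies on the other strand and so reads as its reverse complement. The sequences are from RefSeq on GRCm38.p6, plus strand, at chr9:7272364-7272513 for Mmp13, chr9:7347224-7347373 for Mmp12, chr9:7445672-7445821 for Mmp3 and chr9:7691940-7692089 for Mmp7, and no annotated exon lies in any of them. Mmp12 has 2 annotated windows, and its match is in the downstream one.
Mmp13: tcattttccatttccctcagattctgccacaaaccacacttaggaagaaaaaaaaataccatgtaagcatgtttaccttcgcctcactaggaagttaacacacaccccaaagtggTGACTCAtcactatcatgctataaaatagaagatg
Mmp12: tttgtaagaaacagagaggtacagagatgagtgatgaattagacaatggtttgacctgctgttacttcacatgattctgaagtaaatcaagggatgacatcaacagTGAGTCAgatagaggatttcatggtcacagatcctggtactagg
Mmp3: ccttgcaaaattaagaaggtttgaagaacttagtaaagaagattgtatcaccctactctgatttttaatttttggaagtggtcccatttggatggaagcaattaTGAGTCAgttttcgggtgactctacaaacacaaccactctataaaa
Mmp7: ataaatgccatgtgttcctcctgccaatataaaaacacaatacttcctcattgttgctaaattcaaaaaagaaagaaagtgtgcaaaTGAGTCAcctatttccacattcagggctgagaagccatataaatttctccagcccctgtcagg

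RefSeq windows of 300 bases, from 250 before to 50 after a start site, were found by symbol for 24 of the 34 members, in 29 windows. Both strands were searched for the AP-1 motif, for TATAAA (the letters of a TATA box) and for GCGNGGGCG, a motif shared by WT1 and the EGR factors. AP-1 was found in 5 members, the 4 shown and Adam19, and in 5.20% of 32851 windows of all genes. The motif began 35 bases before the start in Mmp13, 44 in Mmp12, 46 in Mmp3, 63 in Mmp7 and 131 in Adam19. Both lower and higher genes carried it, for after WT1 deletion Mmp12 and Mmp13 were lower and Mmp7 was higher. The WT1/EGR motif was found in Adam23, Adamts14 and Mmp14, and in 5.55% of all windows, and none of these 3 had a row after WT1 deletion. TATAAA was found in 13.6% of all windows and in 8 members, among them Adamts1, Adamtsl2, Mmp8 and the 4 AP-1 genes shown. The match began 32 bases before the start in Adamts1, 30 in Adamtsl2, 26 in Mmp7 (the nearer match), 16 in Mmp13 and 7 in Mmp3. In Mmp12 it lay after the start, and in Mmp8 and Adam6b on the other strand, so not every match is placed alike. The windows of Adam8, Mmp23 and Mmp27 held none of the motifs, and Mmp9 and Adamts5 had no window. These are matches of letters and not measured binding.

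**Figure D1:**
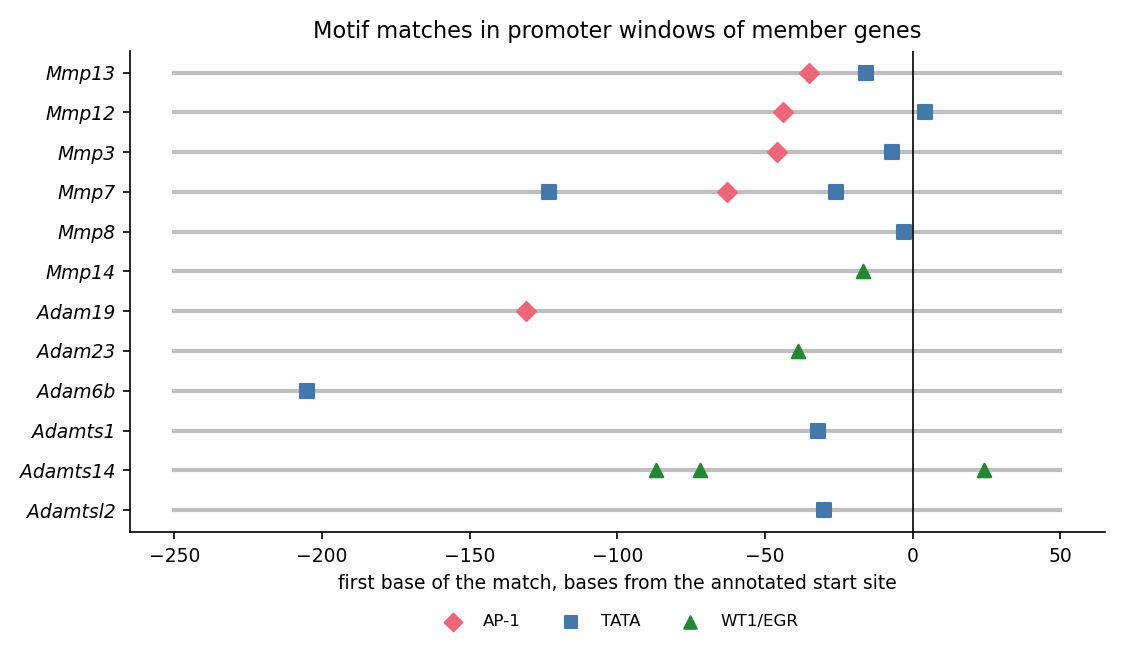
Positions of motif matches in the promoter windows of the 12 member genes with any match. Each grey line is a window, the horizontal axis gives bases from the annotated start site (0), and symbols mark the first base of AP-1, TATA and WT1/EGR matches. AP-1 matches of the 4 Mmp genes lie 35 to 63 bases before the start.

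The first comparison asked how qHSCs of the embryonic WT1 lineage differ from the unlabelled qHSCs of the same livers. Label-positive cells had more RNA for both inhibitors with a row, for the membrane-anchored Mmp14 and for the proteoglycan-cleaving Adamts1, and less for the secreted leukocyte proteases Mmp8 and Mmp9. Of the 28 members 13 were higher and 15 lower, against 50.4% of all 5716 rows higher and 49.6% lower, so the split was close to that of the table. At least a 2-fold difference was seen in 23 members and in 81.2% of rows, and at least a 4-fold difference in 9 members and in 33.0% of rows. All 9 of those members were lower in label-positive cells, as were 79.1% of the 1888 rows with such a difference. The median log2 ratio was -0.999 over the 27 members with a ratio and 0.64 over all rows with one. Members with low values weighed on this median, which was -0.20 for those that reached 1 FPKM in either group and -0.38 with a pseudocount of 1. Taken by direction the medians were close, 1.32 for the higher members and 1.31 for all higher rows, and -2.23 for the lower members and -2.02 for all lower rows. Centred on the median of all rows, 12 members were higher and 16 lower.

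The higher members were the more abundant. Of the 13, 9 reached an FPKM of 10 in label-positive cells, whereas 5 of the 15 lower members did so in label-negative cells. The same count was not made over all higher and lower rows, so it is not shown to be particular to the members. Summed over the higher members, FPKM went from 455 without the label to 1127 with it, and that of the lower members from 202 to 57.2. The direction of both sums is fixed by the split into higher and lower members. In these bulk samples fewer cells of a type and less RNA per cell cannot be told apart.

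**Figure D2:**
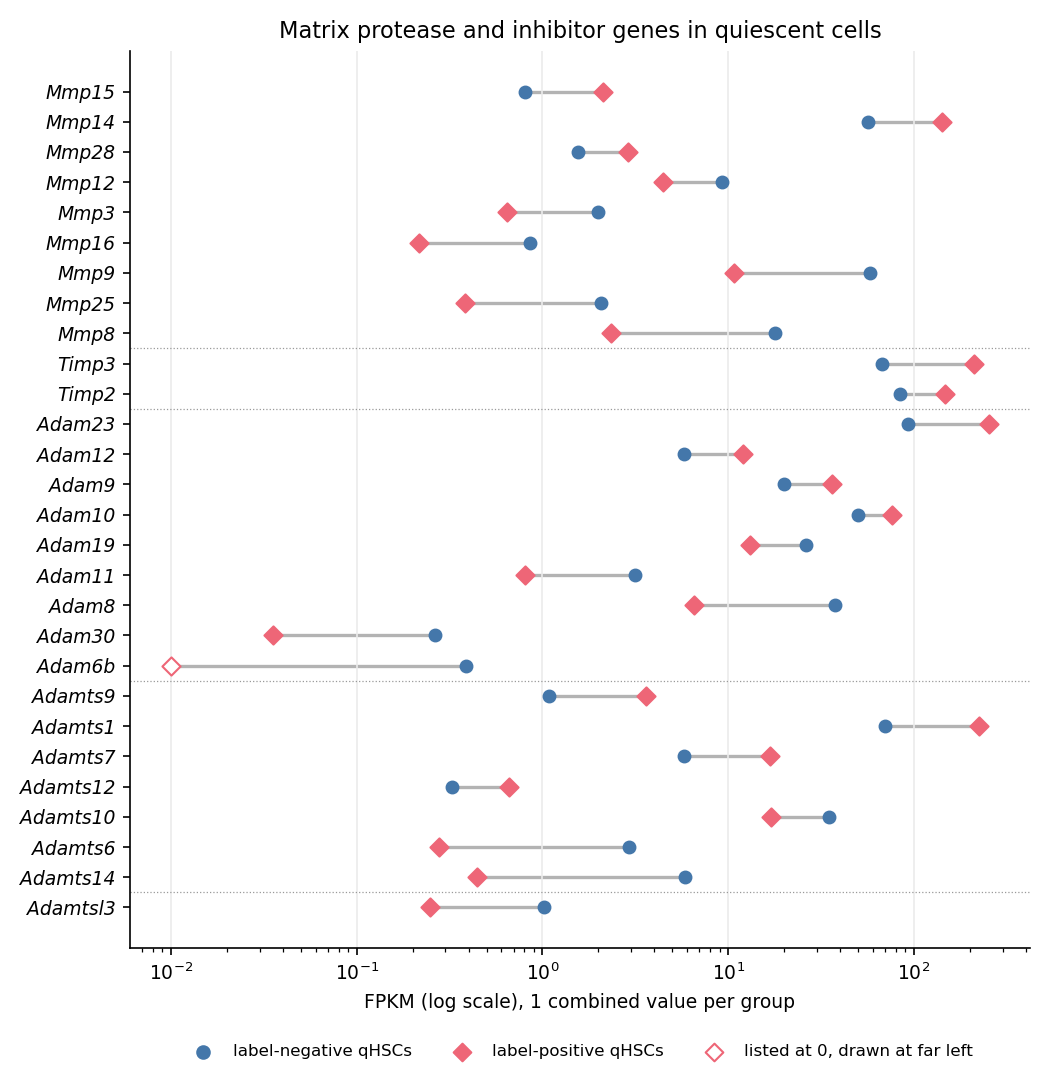
FPKM of the 28 members in label-negative (circles) and label-positive (diamonds) qHSCs on a log axis, 1 combined value per group, grouped by family and ordered by ratio. Both Timp genes lie to the right in label-positive cells, 6 of 9 Mmp genes lie to the left, and Adam10, drawn higher at 0.60 on the log2 scale, becomes -0.04 once centred on the median of all rows.

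Both inhibitors with a row were higher in label-positive cells and were among the most abundant members. Timp3 stood at 67.0 FPKM without the label and at 211 FPKM with it, a log2 ratio of 1.65. Timp2, which binds Mmp14 at the cell surface and takes part in activating proMmp2, had 83.6 and 147, a log2 ratio of 0.81. Between them, Timp2 was thus the more abundant in label-negative cells and Timp3 in label-positive cells. The ratio of Timp3 to Timp2 was 0.802 without and 1.44 with the label. Timp1 and Timp4 had no row, and their levels are not known. Part of the Timp3 transcript, 36.7%, overlaps an exon of Syn3 on the other strand, and reads counted without strand could not be told apart there.

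Among the membrane-type enzymes the abundant one was higher and the scarce ones were split. Mmp14, the main membrane-anchored collagenase, had an FPKM of 56.8 and 142, a log2 ratio of 1.32. Relative to Mmp14, Timp3 went from 1.18 to 1.49 and Timp2 from 1.47 to 1.03. Mmp15, its close relative, had 0.803 and 2.11, a log2 ratio of 1.40. Mmp25, a membrane-bound enzyme of leukocytes, was lower, with 2.07 and 0.381 and a log2 ratio of -2.44. Mmp28 (epilysin), a secreted enzyme, had 1.55 and 2.88, a log2 ratio of 0.90. Its exons overlap a gene on the other strand, where reads counted without strand could not be told apart.

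The secreted collagenase, gelatinase, stromelysin and elastase with a row were all lower in label-positive cells. Mmp8, the neutrophil collagenase, had 17.9 FPKM in the unlabelled and 2.33 FPKM in the labelled fraction, a log2 ratio of -2.94. Mmp9, the gelatinase stored in neutrophil granules and also made by macrophages, had 58.0 and 10.8, a log2 ratio of -2.43. Mmp12, the macrophage elastase, had 9.30 and 4.48, a log2 ratio of -1.05, the smallest fall among the Mmp genes. Mmp3 (stromelysin-1) had 1.98 and 0.645, a log2 ratio of -1.62, and its transcript is 81.9% identical to Mmp10 over 74.7% of its length, so part of its value is uncertain. Mmp2, the other gelatinase and not a member, also was lower, with 5.39 and 1.58.

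ADAM genes were mixed. Adam23, an adhesion protein without protease activity, was the most abundant member in label-positive cells, at 253 FPKM against 92.6 FPKM in the unlabelled fraction, a log2 ratio of 1.45. Adam10, a sheddase that cleaves Notch receptors, had 50.05 and 76.0, a log2 ratio of 0.60 that became -0.04 when centred on the median of all rows. Adam9, a broadly expressed sheddase, had 19.9 and 36.0, a log2 ratio of 0.86. Adam12, which is raised in many activated mesenchymal cells, had 5.76 and 12.1, a log2 ratio of 1.07. These 4 were the higher ADAM genes. On the lower side, Adam8, a sheddase of myeloid cells, had 37.4 and 6.52, a log2 ratio of -2.52, and its ratio to Mmp9 stayed near 0.644 and 0.606. Adam19, a sheddase of neuregulin, had 26.3 and 13.1, a log2 ratio of -0.999. Adam11, which like Adam23 lacks protease activity, had 3.16 and 0.808, a log2 ratio of -1.97. Exons of Adam8 and Adam19 overlap antisense genes, and reads counted without strand could not be told apart in the overlap.

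ADAMTS genes also went both ways, and the proteoglycan-cleaving ones with an FPKM of at least 1 were higher. Adamts1, which cleaves versican and aggrecan and is antiangiogenic, had an FPKM of 69.4 and 225, a log2 ratio of 1.69. Adamts9, of the same proteoglycan-cleaving group, had 1.08 and 3.59, a log2 ratio of 1.73, and was the largest rise among members. Adamts7, which binds cartilage oligomeric matrix protein, had 5.75 and 16.7, a log2 ratio of 1.54. Exons of Adamts9 and Adamts7 overlap genes on the other strand, and reads counted without strand could not be told apart there. Of 6 matrix proteoglycans listed 3 had a row. Vcan (versican), a hyalectan, was 18.6 and 1.36, and the small proteoglycans Dcn (decorin) and Bgn (biglycan) were 109 and 49.0, and 215 and 561. Adamts14, a procollagen N-proteinase, was the largest fall of the members with a ratio, with 5.88 and 0.445 and a log2 ratio of -3.72. Adamts6 had 2.91 and 0.279, a log2 ratio of -3.38, and Adamts10, which binds fibrillin, had 34.9 and 16.9, a log2 ratio of -1.04. Adamtsl3, an ADAMTS-like protein, had 1.02 and 0.249, a log2 ratio of -2.03.

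The 4 remaining members had an FPKM under 1 in both groups. Adamts12 was higher and Mmp16, Adam30 and Adam6b were lower, and their FPKM values ran from 0 to 0.854. Adam6b, listed at 0 in label-positive cells, is 93.9% identical to Adam6a over 98.6% of its transcript.

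Marker genes of other liver cells moved with these groups. In label-positive cells 17 of 18 sinusoidal endothelial genes had a row and all were higher, their summed FPKM going from 5341 to 14425, with log2 ratios of 1.28 to 1.86. Of the 13 higher members 7 had a ratio in that range (Adamts1, Adamts7, Adamts9, Adam23, Mmp14, Mmp15 and Timp3), as had 36.2% of all higher rows. All 13 hepatocyte genes with a row, of 14, were higher too, with sums of 212 and 1727, and 8 of 10 mesothelial genes, with 39.8 and 109. In the other direction, 10 of 12 neutrophil genes had a row and all were lower, with sums of 2375 and 477, log2 ratios of -6.25 to -1.99 and a median of -2.27. That range held 8 of the 15 lower members, Mmp8, Mmp9, Mmp25 and Adam8 among them, and 49.0% of all lower rows. All 17 lymphocyte genes were lower, with sums of 1935 and 90.3 and log2 ratios of -5.92 to -3.49, a range that held 1 lower member, Adamts14, and 16.1% of all lower rows. Macrophage genes were split, 10 higher and 6 lower, with a median log2 ratio of 1.18 but sums of 1925 and 1241, of which Lyz2 gave 1283 and 289. No marker with a row was at 0 in either group. The part of these cells in the members' differences was not tested.

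Most genes of HSCs and other mesenchymal cells with a row were lower in label-positive cells, with a median log2 ratio of -1.38. Of 18 such genes 10 had a row, 2 higher and 8 lower, with sums of 750 and 356, of which Vim alone gave 586 and 248. The higher ones were Hgf, with 17.0 and 44.1, and Rgs5, with 0.7501 and 3.29. Among the lower ones Dcn stayed abundant, at 109 and 49.0, whereas Pdgfrb was 0.905 and 0.370, Pdgfra 3.47 and 0.743 and Col1a1 7.28 and 2.63. Lrat, Des and Reln had no row, and their levels are not known.

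**Figure D3:**
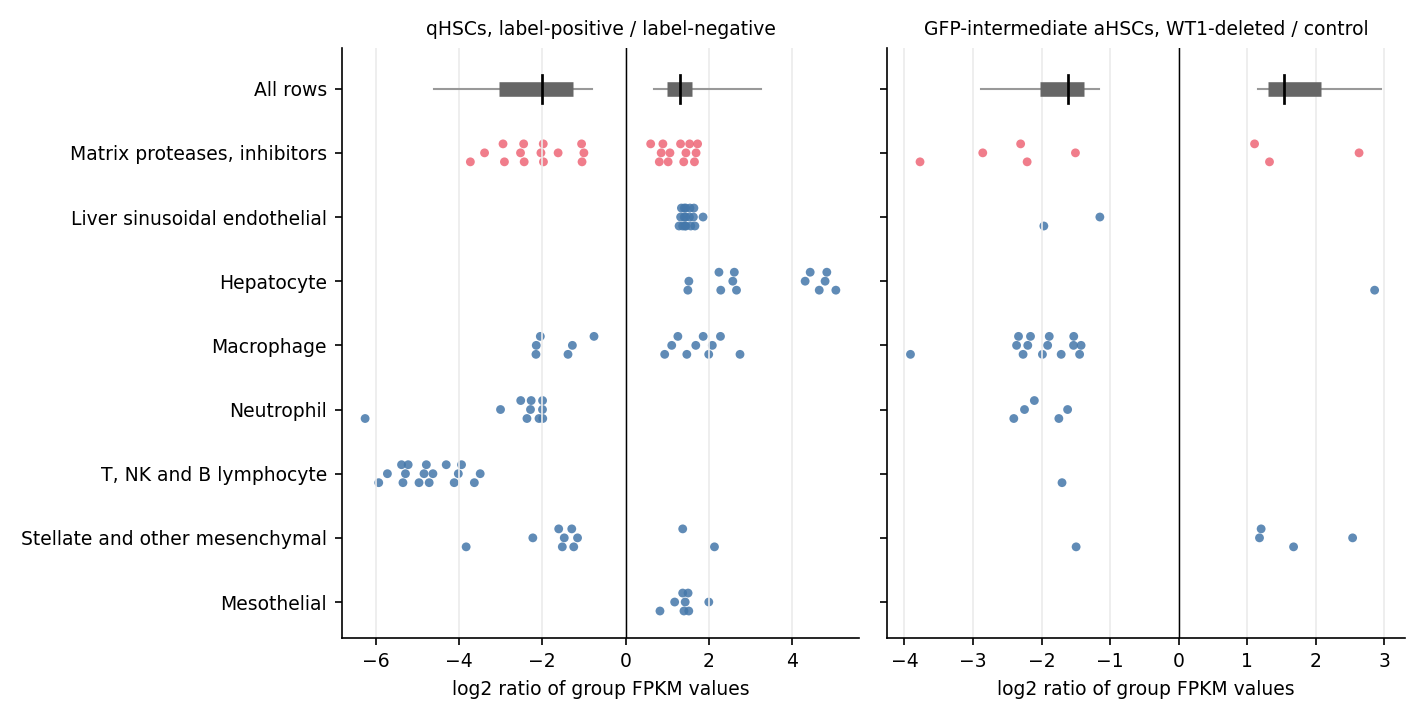
Log2 ratios of group FPKM for members (red), for marker lists (blue) and for all rows (grey, bars from the lower to the upper quartile of the higher and the lower rows, lines from the 5th to the 95th percentile, black ticks at the medians), in qHSCs and GFP-intermediate aHSCs. Endothelial genes of qHSCs form a narrow group at 1.28 to 1.86, and in GFP-intermediate cells all 14 macrophage rows are below 0.

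Other genes of matrix proteolysis in qHSCs were counted from a list of 46 without members. Of these 20 had a row, 9 higher and 11 lower, with a median log2 ratio of -0.88. Lysosomal Ctsl, with 283 and 693, and Ctsb, with 193 and 361, were higher, as were the surface peptidase Dpp4, with 187 and 423, and the inhibitor Tfpi2, with 6.78 and 28.5. Of the plasminogen activator system, the urokinase receptor Plaur was lower, with 88.2 and 24.0, as was Plat, the tissue-type activator, with 3.78 and 2.07. Reck, a membrane-anchored MMP inhibitor, had 2.43 and 1.07, unlike both Timp genes with a row.

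The second comparison asked how loss of WT1 alters the GFP-intermediate aHSCs of injured livers. Macrophage elastase Mmp12 and the myeloid sheddase Adam8 were the 2 dominant members in control cells and were far lower in deleted cells, while Mmp7, Mmp23 and Adamts5 were higher. Of 419 named rows 8 were members, 3 higher and 5 lower, against 37.2% of rows higher and 62.8% lower. All 8 differed at least 2-fold, as did 100% of rows, and 5 members differed at least 4-fold, against 33.9% of rows. Of those 5, 4 were lower and 1, Mmp7, was higher, and 64.8% of the 142 rows with such a difference were lower. The median log2 ratio was -1.86 over the members and -1.33 over all rows with a ratio. Lower members had a median of -2.31 and all lower rows -1.61, and higher members 1.32 and all higher rows 1.54.

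The control level of Mmp12 was 551 FPKM, and the level after deletion was 40.3 FPKM, 13.7-fold lower. It went from the 6th to the 70th highest level among named rows. Adam8 had 265 and 53.6, a log2 ratio of -2.31, and went from the 23rd to the 53rd. Together they made 92.6% of the summed FPKM of the members in control and 60.8% in deleted cells. That sum was 881 in control and 154 in deleted cells, but without Mmp12 and Adam8 it was 65.4 and 60.5. The sum over the other 6 members thus differed little, while its makeup did. Mmp12 was 2.08 times Adam8 in control and 0.753 times in deleted cells, so the fall of Mmp12 was the larger. Exons of both genes overlap a gene on the other strand, Mmp1b for Mmp12, where reads counted without strand could not be told apart. In the transcript search neither matched another gene, and the size of the overlap was not measured.

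**Figure D4:**
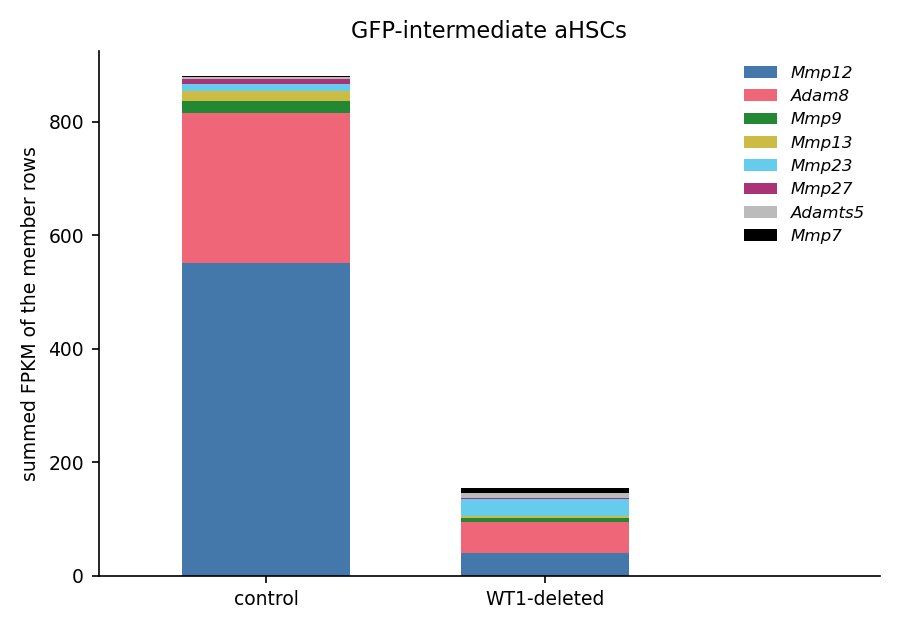
Summed FPKM of the 8 members in control and WT1-deleted GFP-intermediate aHSCs, stacked by gene, 1 combined value per group, from a baseline of 0. Mmp12 and Adam8 fill most of the control bar, 92.6%, and the total goes from 881 to 154.

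Among the other lower members were a collagenase and a gelatinase. Mmp13, the main interstitial collagenase of rodents, had 17.5 in control and 3.79 in deleted cells, a log2 ratio of -2.21. Mmp27, a little studied enzyme of the same stretch of chromosome 9, had 9.48 and 1.31, a log2 ratio of -2.86. Mmp9 had 20.7 and 7.30, a log2 ratio of -1.51, the smallest fall of the 5. No Timp gene had a row after deletion in either fraction, so levels of inhibitors beside these proteases are not known from the tables.

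The higher members differed in kind. Mmp7 (matrilysin), an epithelial enzyme in many tissues, had 1.45 FPKM in the controls and 8.96 FPKM after deletion, 6.19-fold higher, which was the 15th largest rise of the 379 rows with a ratio. Part of its transcript, 11.6%, overlaps AV064505 on the other strand. Mmp23, a membrane-bound enzyme without the usual hemopexin domain, had 12.1 and 30.3, a log2 ratio of 1.32, and in deleted cells was the next member by level after Adam8 and Mmp12. Adamts5, the main aggrecanase of mouse cartilage, had 4.10 and 8.83, a log2 ratio of 1.11. The sum of these 3 went from 17.7 to 48.1, a direction fixed by taking only the higher members. Mmp2, left out by rule, was higher too, with 19.5 and 82.8 here and 16.9 and 91.4 in GFP-high cells.

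**Figure D5:**
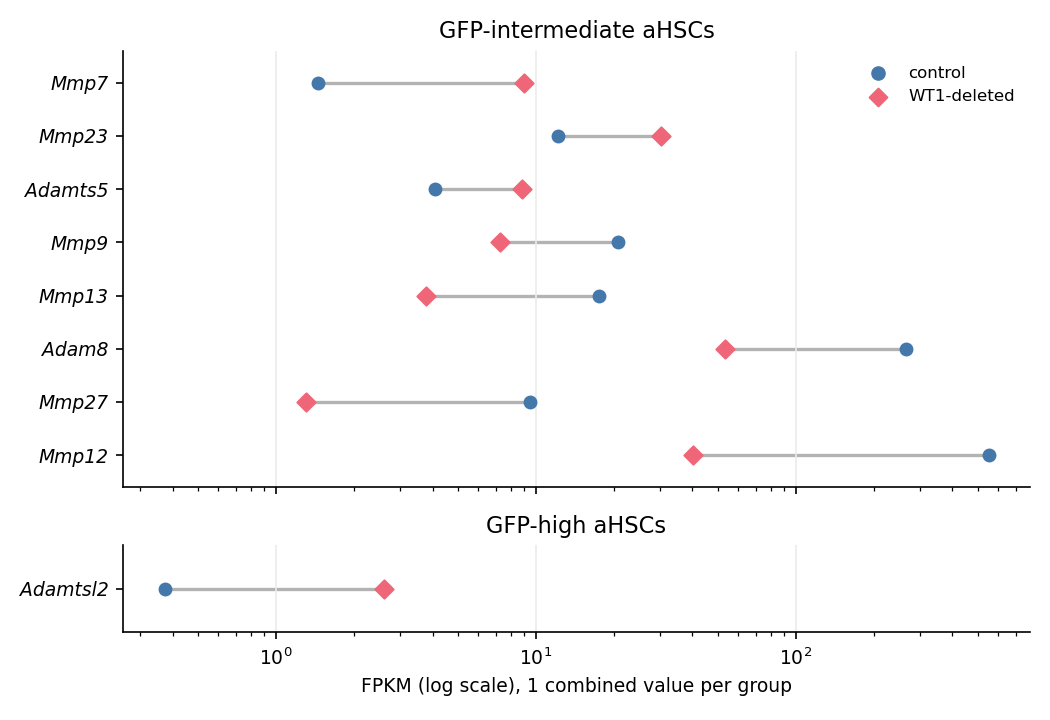
FPKM of the members in control (circles) and WT1-deleted (diamonds) aHSCs on a log axis, 1 combined value per group, GFP-intermediate cells above and GFP-high cells below. Mmp12 spans 551 to 40.3, and Adamtsl2 is the single member of the GFP-high table.

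Macrophage markers moved with the lower members. Of 20 macrophage genes 14 rows were in the GFP-intermediate table and all 14 were lower in deleted cells, with summed FPKM of 5559 and 1375, none at 0, and log2 ratios of -3.91 to -1.42 with a median of -1.95. All 5 lower members lay in that range, as did 62.7% of all lower rows. Mmp12, at -3.77, was beyond all macrophage markers but Atp6v0d2, at -3.91, a pump subunit of osteoclasts and lipid-laden macrophages. Neutrophil genes with a row, 5 of 12, were also lower, with sums of 729 and 219 and a median log2 ratio of -2.11. The endothelial genes Stab1, with 120 and 30.8, and Cdh5, with 17.9 and 8.09, were lower too, as was the lymphocyte gene Gzma, with 9.93 and 3.05. The hepatocyte gene Car3 was higher, with 1.97 and 14.2. In contrast 4 stellate and mesenchymal genes were higher, Lum (38.1 and 122), Pdgfra (18.8 and 43.4), Postn (13.6 and 30.9) and Rgs5 (1.41 and 8.20), and 1 was lower, Hgf (9.45 and 3.35). The part of these cells in the differences of the members was not tested. Among other matrix proteolysis genes the cathepsin Ctss, itself one of the macrophage markers, had 1799 and 486, and Plau (urokinase) had 36.2 and 12.7. Serpinb2, in a row shared with a pseudogene, had 92.7 and 27.3, and the proprotein convertase Pcsk5 was the 1 higher gene of the 4 with a row, at 1.27 and 3.74.

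The same question was asked of GFP-high aHSCs, where 1 of 123 named rows was a member. Adamtsl2, a microfibril-associated protein that binds latent TGF-beta-binding protein, had 0.372 FPKM in the controls and 2.61 FPKM after deletion, 7.01-fold higher. Of all rows 77.2% were higher and 63.4% differed at least 4-fold, and the rise of Adamtsl2 was the 25th of the 106 rows with a ratio. The median log2 ratio was 2.81 for this 1 member and 1.83 for all rows. Serpine2, an inhibitor of thrombin and plasminogen activators, had 1.70 and 5.27, and the secreted serine protease Htra3 had 12.3 and 31.6. In these cells 2 macrophage genes were higher, Gpnmb at 20.8 and 101 and Atp6v0d2 at 1.50 and 12.7, and 6 neutrophil genes were lower, with sums of 520 and 149. The mesenchymal genes Lum, at 42.6 and 136, and Postn, at 7.10 and 41.1, were higher as well, and so was the hepatocyte gene Cps1, at 0.233 and 1.20. Their part in the level of Adamtsl2 was not tested.

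Mmp9, Mmp12 and Adam8 were the members with a row both in qHSCs and in GFP-intermediate aHSCs, and each was lower in both comparisons. Mmp12 was 9.30 in label-negative qHSCs and 551 in control GFP-intermediate cells, and Adam8 37.4 and 265. Mmp9 was 58.0 and 20.7. The tables were made separately and differ in animals, injury and sort, so these levels are set side by side without comparison. Of the 419 row names of the GFP-intermediate table, 53.2% also had a row in qHSCs. How many of those were lower in both comparisons was not counted, so the shared direction is not shown to be particular to these members. No member had a row in all 3 tables, as had 0.403% of all row names.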

How the data were processed

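RNA of 16 sorted HSC samples was sequenced on an Illumina HiSeq. Mapping by the authors was with bowtie 2, and genes were called by Cuffdiff2 at 0.05 for the adjusted p, and the submitters' notes name TopHat2 2.0.3, Cufflinks 2.0.1, DESeq2 and the builds mm9 and mm10 without a role. The deposited FPKM tables give 1 FPKM for each group and listed gene, so samples were combined before deposit. Depth, spread and strand of counting are unknown, and the test planned for values per sample was not run. The authors' fold changes, p and q values were not used. From the FPKM, log2 ratios were computed without a pseudocount, and rows at 0 in a group were counted apart. Left out were 108 GFP-high and 149 GFP-intermediate loci without a gene name. Of the latter 2 lie past the last GRCm38.p6 gene of their chromosome, and the build of the files is not known. The reference served for names, order, promoters and transcript identity (blastn 2.17.0).

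Members and lists were chosen with earlier results of these data known. Every member row of the deletion tables was named, and in qHSCs each that reached 1 FPKM in either group. Other genes are from the lists, as examples. The planned search of member proteins for the catalytic motif was not run, and a protein table was not used here. Alternatives were pseudocounts of 0.1 and 1, a floor of 1 FPKM in either group, at least a 2-fold ratio, rows naming 1 gene, and centring on the median of all rows. The functions were tested on simulated tables. Python 3.11.15, pandas 2.3.3, numpy 2.4.6 and matplotlib 3.10.9 were used.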

Additional observations from a re-analysis of the deposited data

How the results depend on the processing

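Counts of members by direction stayed within 1.5 times the reported ones under each alternative that could be computed. In qHSCs 12 were higher and 12 lower with at least 1 FPKM in the group with more, 9 and 14 with at least a 2-fold ratio, and 12 and 16 after centring on the median of all rows. Medians moved more. The median log2 ratio of -0.999 in qHSCs was -1.02 with a pseudocount of 0.1, -0.38 with a pseudocount of 1, -0.20 for members with at least 1 FPKM in the group with more and -1.64 after centring. That of Adamtsl2 in GFP-high cells, 2.81, was 2.52, 1.396 and 0.98 with the pseudocounts of 0.1 and 1 and after centring. In GFP-intermediate cells -1.86 became -1.84, -1.67 and -0.53. Adam10 was the 1 member whose direction reversed, to -0.037 after centring. Read to 2 decimals, all 36 member ratios changed with a pseudocount of 1 and 27 with 0.1, and none of them turned in direction. No paired analysis was possible because the deposited values combine the samples of a group, and leaving out a replicate was not possible for the same reason. Depth is unknown, so low values such as those under an FPKM of 1 have no error.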
